A study of Mus musculus with 5 samples.

Results

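The rows described here are transcribed regions of the mouse genome to which the deposited table gives an identifier and coordinates but no gene symbol, and which lie outside every row that has a symbol. They were chosen by 4 criteria: no symbol, a mean normalized signal of at least 10 over the 5 samples, a place on chromosomes 1 to 19, and no overlap with any row that has a symbol, whatever the strand. Of the 56324 rows in the table, 28370 had a mean of at least 10, and 4464 of these met all criteria. The 3 members nearest the floor had means of 10.01, 10.01 and 10.02, and the 3 rows just outside it had means from 9.99 to just under 10. The floor was set on the mean of all samples, so a row could pass through 1 cell type alone; 2052 members had a mean of at least 10 in both.

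The samples came from C57Bl/6 mice 12 weeks old, with no transgene or drug named. There were 2 samples of spermatocytes, the cells in meiosis, and 3 of spermatids, the haploid cells that follow them and are remodelled into sperm. Cells were separated on a Sta-put gradient, which sorts mainly by size, and libraries were made with a stranded kit that selects polyadenylated RNA. The reads recovered per library ran from 52784231 to 84361908. All 7 round spermatid markers and all 8 elongating spermatid markers tested were higher in spermatids, and 7 of 10 spermatocyte markers were lower while 1 was higher. All 15 Sertoli cell markers were lower in spermatids, with summed signals of 69461 and 91870 in spermatocyte samples 1 and 2 against 2520 to 3302 in spermatids. All 7 Leydig cell markers were also lower; of 10 markers each, spermatogonial genes gave 6 higher and 1 lower, and other somatic genes 6 higher and 1 lower. No listed marker that was matched was at 0 in all samples. The elongating spermatid markers summed to 1968081 in spermatid sample 1 against 694208 and 667944 in samples 2 and 3. The labels do not say that the samples came from separate animals, and p-values therefore speak only of the variation among these 5 samples, part of which may be technical. In bulk RNA, fewer cells of a type and less RNA per cell cannot be told apart.

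Male germ cells are known for transcribing much of the genome that other tissues leave silent, including long noncoding RNAs, retrogenes and pseudogenes. In meiosis, mouse spermatocytes also make long intergenic transcripts that are cut into piRNAs, small RNAs that PIWI proteins carry and that often start with U; A-MYB, a transcription factor of spermatocytes, is known to drive many of these precursor genes. Spermatids transcribe a large late programme before chromatin is packed with protamines, and RFX2 is among the factors known to act in it.

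The members came in contrasting sizes, from 20 to 729077 bases with a median of 808.5. There were 1192 rows of 20 to 50 bases, 733 of 51 to 200 bases and 2539 longer than 200 bases. The most frequent length among the short rows was 30 bases, with 274 members, and 456 members were 29 or 30 bases long. Among all rows deposited, 9870 were 50 bases or shorter, and 5 of these had a symbol. The table gives no strand. Where a short row lay within an exon of the GENCODE vM21 annotation, its sequence was read on the strand of that transcript. The 9 rows below are shown because lengths near theirs are the most frequent among the members; they lie in the exons of 3 long noncoding genes, Gm21269 on chromosome 7, Gm21388 on chromosome 3 and Gm30132 on chromosome 8, all on build mm10. The first base of each is in capitals. They are the most abundant rows of at most 35 bases so readable in each gene: GSMG0058559 at chr7:73821931-73821965, GSMG0058570 at chr7:73825289-73825317 and GSMG0049469 at chr7:73822388-73822417 on the plus strand of Gm21269, GSMG0056825 at chr3:34878550-34878576, GSMG0056824 at chr3:34878418-34878443 and GSMG0047530 at chr3:34873105-34873138 on the plus strand of Gm21388, and GSMG0059223 at chr8:93417529-93417557, GSMG0059220 at chr8:93416511-93416541 and GSMG0059216 at chr8:93416256-93416284 on the minus strand of Gm30132.
GSMG0058559: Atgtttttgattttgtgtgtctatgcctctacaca
GSMG0058570: Taggcattctacgaagaggggcctaaaga
GSMG0049469: Tgaaggacatcaacacgtttcaatagcagc
GSMG0056825: Tgcacacacaggtatgtctgtctctgt
GSMG0056824: Taaagctattaatgctgcgtgcagaa
GSMG0047530: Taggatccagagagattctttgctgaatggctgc
GSMG0059223: Cagaagttgccaggttttgtctgaccagc
GSMG0059220: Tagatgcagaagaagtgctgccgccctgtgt
GSMG0059216: Ttccaattttctctcagaagcctcatccc

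Of the 228 members of at most 35 bases that lie inside 1 annotated exon, 152 started with T on the transcript strand, which is 66.7% (95% Wilson interval 60.3 to 72.5%, for counting error only). T made up 25.4% of all bases in these rows and 15.4% of their second bases. The 228 rows came from 80 loci, so rows are not independent of each other. In exons of long intergenic noncoding genes 75 of 93 rows, from 12 loci, started with T (80.6%), and in exons of pseudogenes 43 of 88, from 48 loci, did (48.9%). Most of the 93 rows lay in the genes printed above: 30 in Gm21269, 33 in Gm21388 and 13 in Gm30132. Of these, 22, 27 and 11 started with T. A row on the strand opposite to its annotated exon would end in A where its own first base is T. In the pseudogene exons 64.8% of rows ended in A, against 30.5% A over all their bases. A first T or a last A was present in 85.5% of the 228 rows, against 31.1% when the second and the next-to-last base were read in the same way. T was rarer among second bases than over all bases, as given above, so 31.1% may be a low comparison. Since the table gives no strand, the strand of these rows was not tested. All 10 rows readable in the pseudogene Gm48009 ended in A, and 4 of them started with T. Rows of 26 to 32 bases started with T in 71.3% of 178 cases and rows of 20 to 25 bases in 48.6% of 37. A first T was also frequent outside the arrays of short rows defined below, in 61.1% of 90 rows, against 70.3% of 138 inside them. It was present in 69.3% of the 150 rows called lower in spermatids and in 61.5% of the 78 others. These bases describe the coordinates of the rows in the table, not the ends of molecules in these libraries. Where the coordinates came from is not given in the sources used here, and whether the rows are piRNAs was not tested.

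The strand and start of longer members were taken from RefSeq where a row matched a RefSeq gene, which gave a promoter window, from 250 bases before to 50 after the annotated start, for 336 members. The 4 windows below (RefSeq, build GRCm38.p6) are shown because their rows are among those with the largest differences in each direction that have such a start. Gm17026 (window chr14:42260046-42260345, minus strand) and Gm12018 (chr11:18095736-18096035, plus strand) were higher in spermatids; Gm14244 (chr2:127691604-127691903, plus strand) and 1700047E10Rik (chr14:44213188-44213487, minus strand) were lower. Capitals mark the searched letters on either strand: AACTG (the core of MYB sites), GTTGCCA (a part of RFX sites), TATAAA and GGGCGG (the GC box). Other windows of similar rank are not printed, and their letters differ from these. Higher in spermatids, the window of Gm32141 holds 2 copies of AACTG and that of Gm40292 holds no searched letters. Lower in spermatids, the windows of E330035G20Rik and Gm19391 hold 1 copy of AACTG each, and Gm19391 also holds 2 of GGGCGG.
Gm17026: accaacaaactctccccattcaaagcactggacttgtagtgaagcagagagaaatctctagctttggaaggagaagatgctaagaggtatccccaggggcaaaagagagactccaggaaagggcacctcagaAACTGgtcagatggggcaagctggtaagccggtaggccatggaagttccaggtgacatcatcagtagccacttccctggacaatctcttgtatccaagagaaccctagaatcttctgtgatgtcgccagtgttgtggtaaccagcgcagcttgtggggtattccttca
Gm12018: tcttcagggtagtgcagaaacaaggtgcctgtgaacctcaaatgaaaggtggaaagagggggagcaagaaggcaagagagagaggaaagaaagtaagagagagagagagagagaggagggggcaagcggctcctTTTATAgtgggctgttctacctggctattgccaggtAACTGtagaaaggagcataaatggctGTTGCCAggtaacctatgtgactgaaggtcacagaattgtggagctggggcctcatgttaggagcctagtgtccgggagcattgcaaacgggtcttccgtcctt
Gm14244: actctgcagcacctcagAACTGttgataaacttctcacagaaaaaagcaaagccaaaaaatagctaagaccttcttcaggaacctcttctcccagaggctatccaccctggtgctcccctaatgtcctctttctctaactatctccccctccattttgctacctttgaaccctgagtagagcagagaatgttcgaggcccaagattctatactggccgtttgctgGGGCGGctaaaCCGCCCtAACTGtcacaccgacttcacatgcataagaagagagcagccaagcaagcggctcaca
1700047E10Rik: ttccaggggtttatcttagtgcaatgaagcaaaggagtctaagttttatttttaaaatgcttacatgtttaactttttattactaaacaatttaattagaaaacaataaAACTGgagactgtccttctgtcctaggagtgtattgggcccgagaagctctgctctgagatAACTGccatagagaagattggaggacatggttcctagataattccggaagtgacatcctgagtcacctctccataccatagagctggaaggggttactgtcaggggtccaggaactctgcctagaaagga

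AACTG was present in 40 of the 67 windows whose rows were lower in spermatids (59.7%), in 87 of 214 whose rows were higher (40.7%) and in 44.8% of 31396 RefSeq windows on the same chromosomes. At RefSeq starts in or near the arrays of short rows defined below, 5 of 11 windows held AACTG (45.5%), near the share of all windows. GTTGCCA was present in 19 of 214 windows of rows higher in spermatids (8.88%), in 2 of 67 of rows lower (2.99%) and in 4.41% of all windows. GGGCGG was present in 17.3% and 29.9% of windows of rows higher and lower in spermatids, against 36.0% of all. TATAAA was present in 16.4% and 11.9%, against 13.6%. The cyclic AMP element TGACGTCA was in 2 windows of each direction, and TGACG, which the longer element contains, was in 15.4% of windows of rows higher and 25.4% of rows lower, against 21.0% of all. Median GC content was 48.3% for windows of rows higher in spermatids, 52.3% for those lower and 53.0% for all. A short run of letters is a description and not a binding site.

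Among all 28370 rows tested, 40.6% were called higher in spermatids and 36.5% lower (limma, Benjamini-Hochberg adjusted p under 0.05 over all rows). Of the 4464 members, 1270 were called higher and 2489 lower, 28.4% and 55.8%. Their median log2 fold change, spermatids minus spermatocytes on the log2(signal + 1) scale, was −1.54, against 0.07 for all rows tested and 0.29 for the 18630 rows with a symbol. The 5107 unnamed rows that overlap a row with a symbol gave 1684 higher and 1986 lower, with a median of −0.26. Spermatocyte and spermatid values stood apart, with no overlap, in 90.7% of members and in 85.8% of all rows tested. A change in either direction was called in 77.1% of all rows. Called differences of at least 2-fold numbered 1176 toward spermatids and 2392 toward spermatocytes among the members, against 33.2% and 28.7% of all rows. The excess of rows lower in spermatids lay in the short rows. Among members of up to 200 bases, 81 were higher and 1713 lower of 1925, with a median of −3.65. Unnamed rows of that size that overlap a row with a symbol were also mostly lower. They gave 52 higher and 437 lower of 596, with a median of −2.88, so this trait was not particular to the members. Among members over 200 bases, 1189 were higher and 776 lower of 2539, with a median of 0.44. With 1 row counted per locus, the most abundant of each group of members within 10 kb of each other, 1133 were higher and 747 lower and the median was 0.40. Of the members with a mean of at least 10 in both cell types, 46 of 476 up to 200 bases were higher and 319 lower, and 505 of 1576 longer ones were higher and 571 lower, with medians of −2.37 and −0.22. The sign of the longer rows' median thus turned with this condition. Of all 21828 rows that meet it, 37.3% were higher and 35.2% lower, with a median near 0, and the longer members' share called lower, 36.2%, was close to that.

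**Figure D1:**
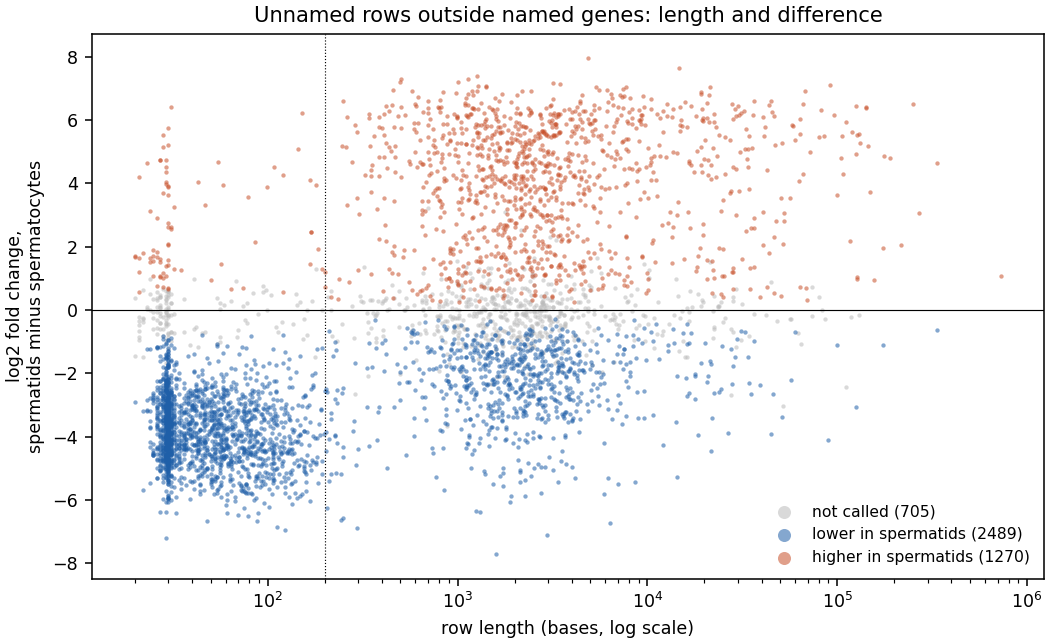
Each point is 1 of the 4464 members, placed by its length in bases (log scale) and its log2 fold change, spermatids minus spermatocytes; the dotted line is at 200 bases. The column of points at 30 bases and most rows up to 200 bases sit below 0 (1713 of 1925 called lower), while longer rows lie on both sides (1189 called higher, 776 lower).

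The authors' scaling and a scaling to equal library totals set different zero points. With equal totals the median of all rows moved to −0.57 and that of members over 200 bases to −0.19, with 1033 called higher and 1036 lower; with quantile normalization these medians were −0.42 and 0.07. Relative to the median of all rows, members over 200 bases stood 0.37 higher with the authors' scaling, 0.38 with equal totals and 0.48 with quantile normalization. Members up to 200 bases stood at −3.72, −3.64 and −3.63 relative to the same medians. With equal totals 58 short rows were called higher and 1768 lower.

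The short rows lay close together. An array was defined, after the values were seen, as a run of at least 10 members of up to 200 bases with gaps of at most 10 kb. The 50 arrays so found held 1603 of the 1925 short rows (83.3%), on 17 of the 19 chromosomes, with none on chromosomes 16 and 19. Their spans ran from 1114 to 44442 bases, with a median of 9676.5, and the median gap between neighbouring rows was 85 bases. Rows of an array may be pieces of 1 transcript, so the array and not the row is the unit below. Arrays near each other, such as chr6:127780214-127814675 and chr6:127826226-127840619, may also not be separate units.

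Summed over all array rows, the normalized signal was 153850 and 139232 in the spermatocyte samples and 14419, 13374 and 14894 in the spermatid samples. In 48 of the 50 arrays both spermatocyte sums were above all 3 spermatid sums. The ratio of the mean sums, spermatocytes over spermatids, had a median of 14.3 and ranged from 0.11 to 67.9. It was at least 8 in 38 arrays and at least 16 in 20. Of the 1603 rows 1548 were called lower in spermatids and 22 higher, and in 42 arrays every row was called lower. The median log2 fold change of the 1603 rows was −3.85. Most of them passed the floor on the mean through spermatocytes alone. Of the 326 with a mean of at least 10 in both cell types, 284 were lower and 15 higher, with a median of −2.83. Of all 21828 rows that meet this condition, 35.2% were lower and 37.3% higher. The count of arrays with a lower mean sum in spermatids was also 48 with equal library totals, with TMM factors and without any 1 sample. The 15 Sertoli and 7 Leydig cell markers were lower in spermatids as well, and the part of RNA from those cells in the array rows and in the other members was not tested. The 53 members over 200 bases inside array loci gave 50 lower and 3 higher, with a median log2 fold change of −3.86, against 726 lower and 1186 higher of the 2486 outside them, with a median of 0.52.

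**Figure D2:**
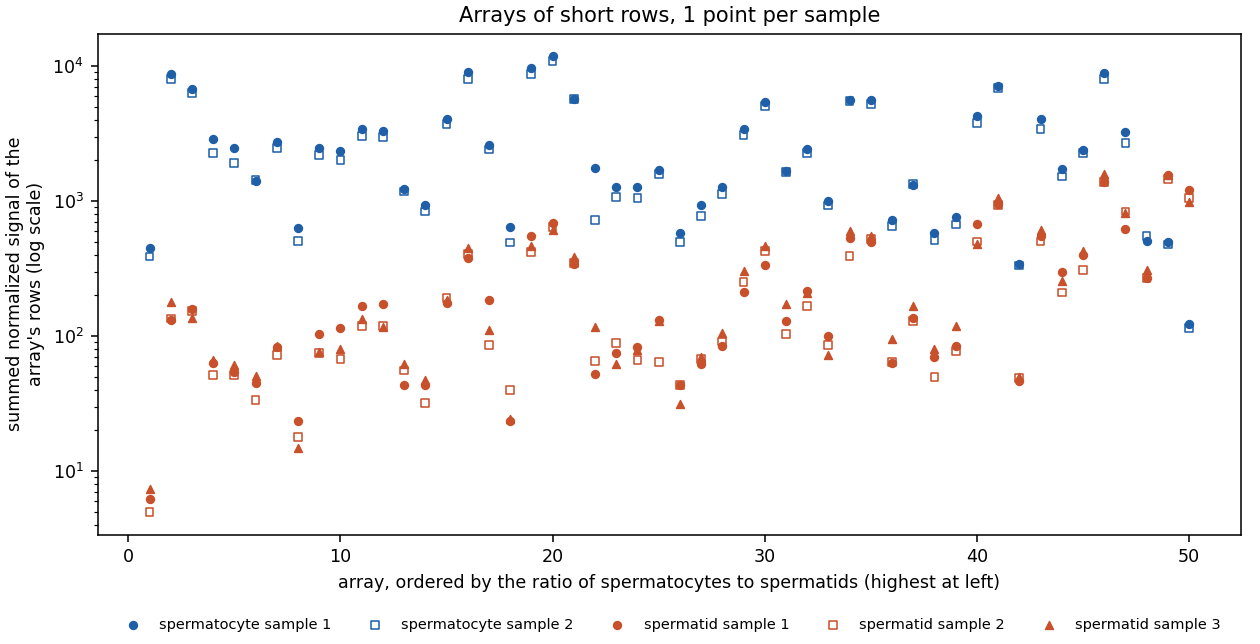
Each column is 1 of the 50 arrays, ordered by the ratio of spermatocytes to spermatids, and the 5 points are the summed normalized signal of its rows in each sample (log scale). Spermatocyte samples (blue) lie above spermatid samples (orange) in 48 columns; the 2 columns at the right end are reversed.

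The array in the long noncoding gene Gm21269, at chr7:73816627-73825900, held 72 rows, all called lower. Its summed signal was 8788 and 8005 in spermatocytes and 132, 135 and 179 in spermatids, which is 56.5 times higher in spermatocytes, from 20098 and 392 reads in the cell types. Neither group came near the other. GSMG0053155, its most abundant row (160 bases), had 958 and 796 in spermatocytes against 12.4, 17.8 and 17.8. GSMG0049473, another row of it, had 271 and 231 in spermatocytes against 0, 0.991 and 4.19, a log2 fold change of −6.85 ± 0.69 (SE, limma adjusted p = 0.000115). GSMG0058559, the first of its rows printed above, had 127 and 109 against 1.55, 0 and 4.19. On the same chromosome lay the array with most rows, 109 at chr7:73102304-73146745, overlapping the noncoding gene 4933435G04Rik. Its sums were 9093 and 8059 against 381, 404 and 445, a ratio of 20.9, with every row called lower.

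**Figure D3:**
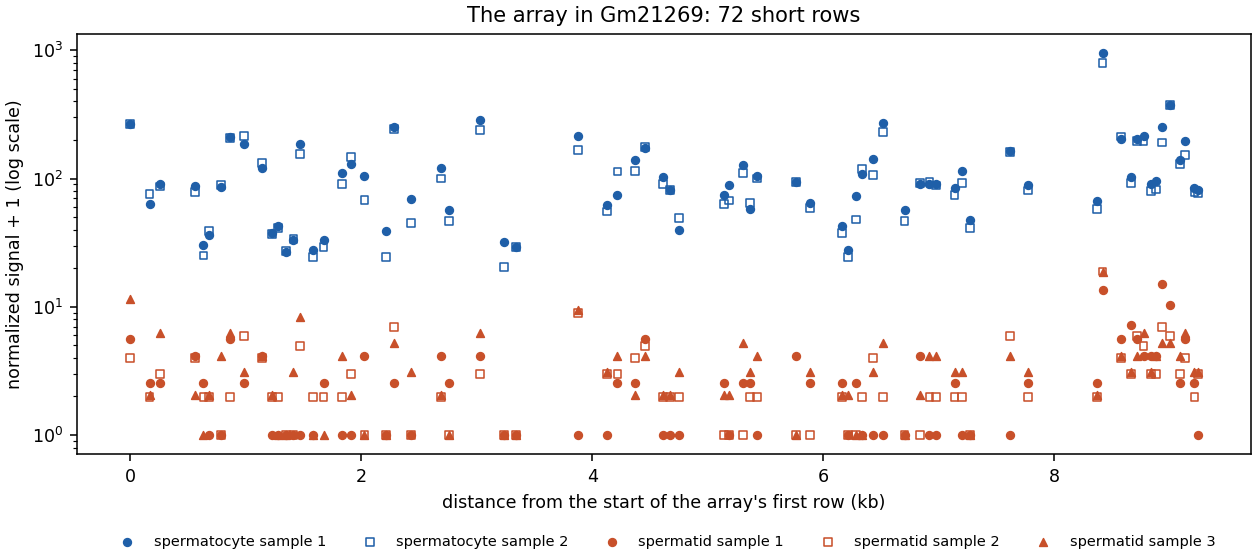
The 72 short rows of the array in Gm21269 by distance from the start of its first row (kb), with the normalized signal + 1 in each of the 5 samples (log scale). All rows are high in both spermatocyte samples and low in the 3 spermatid samples along the whole 9274 bases.

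The array in Gm21388, at chr3:34867947-34878576, had a smaller ratio of 6.77: its 58 rows summed to 4082 and 3403 in spermatocytes against 549, 501 and 608, and all were called lower. GSMG0056825, the first of its rows printed above, had 224 and 165 against 13.95, 14.9 and 10.5. The array with most reads was at chr8:92189538-92194349, where no GENCODE gene lies and the nearest row with a symbol is 131685 bases away. Its 51 rows summed to 11811 and 10877 in spermatocytes against 690, 645 and 609, a ratio of 17.5. The largest ratio, 67.9, was at chr4:94278989-94294590, where 10 rows summed to 449 and 388 against 6.20, 4.96 and 7.34. That ratio rests on 16 reads over the 3 spermatid samples. Next to 1700020N18Rik, at chr1:91403084-91404720, 13 rows summed to 6814 and 6283 against 158, 154 and 136. GSMG0052708 there had 1425 and 1344 in spermatocytes and 6.20, 10.9 and 15.7 in spermatids (log2 fold change −6.94 ± 0.38, SE, limma adjusted p = 6.82e-06). On chromosome 14 the array at chr14:44936169-44941130 was the least even between replicates, with 1758 in spermatocyte sample 1 and 724 in sample 2 against 52.7 to 116 in spermatids.

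Arrays that went the other way were few. At chr4:41806286-41811117, over the unprocessed pseudogene Gm10601, 10 of 11 short rows were higher in spermatids, with sums of 122 and 115 in spermatocytes against 1205, 1050 and 984. A longer member there, GSMG0057253 (1637 bases), had 1050 and 750 against 5850, 5058 and 5484, a log2 fold change of 2.62 ± 0.16 (SE, limma adjusted p = 1.06e-05). At chr3:100468832-100471407, over the GENCODE gene Tent5c but outside the table's row for it (listed as Fam46c), all 10 rows were higher in spermatids, with sums of 495 and 476 against 1564, 1461 and 1564. The array at chr8:37093698-37094811 was 1.89 times higher in spermatocytes, with 5 of 10 rows called lower.

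The floor on the mean left out further rows inside the same spans. Of 2342 such rows below a mean of 10, 2283 had a read, and 2271 of these had a lower mean in spermatids. Fitted with no filter, where 35.8% of 48199 rows were called lower and 27.0% higher, 2072 of the 2283 were called lower and 0 higher (limma). These rows lie in spans drawn from the array rows of the same data and may be pieces of the same transcripts. Their counts are therefore a description and not separate support. The short members outside arrays, 322 in number, gave 59 higher and 165 lower in the main fit (18.3% and 51.2%), with a median of −1.17. Of all 28370 rows in that fit, 40.6% were higher and 36.5% lower. These 322 rows were not counted with a mean of at least 10 in both cell types.

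Long members differed with their distance from the nearest row with a symbol. Within 5 kb 429 of 1259 were higher in spermatids and 494 lower, with a median log2 fold change of −0.29. From 5 to 50 kb away 433 of 796 were higher and 198 lower, with a median of 1.45. Over 50 kb away 327 of 484 were higher and 84 lower (67.6% and 17.4%), with a median of 3.84. A called difference of at least 32-fold toward spermatids, on the log2(signal + 1) scale, was reached by 172 of those 484 rows and by 90 of the 1259 nearest rows, against 9.58% of all rows tested. Over all distances 447 of the 2539 long members reached it, and 39 reached 32-fold toward spermatocytes, against 1.52% of all rows in that direction. Many of these rows passed the floor on the mean through spermatids alone. Among long members with a mean of at least 10 in both cell types, 132 of 1576 reached 32-fold toward spermatids and 10 toward spermatocytes, beside 1444 and 71 of the 21828 rows of the table that meet the same condition. Under that condition 234 of 920 long members within 5 kb were higher and 391 lower (median −0.57), 152 of 416 at 5 to 50 kb were higher and 124 lower (median near 0), and 119 of 240 over 50 kb away were higher and 56 lower (median 0.60). Of the 21828 rows, 37.3% were higher and 35.2% lower, and the share higher at 5 to 50 kb, 36.5%, was close to that. The log2 fold changes of long members within 5 kb and of their nearest tested neighbour with a symbol had a Spearman rho of 0.50 (1225 pairs, 1141 neighbours); the points share libraries and some share a neighbour. From 5 to 50 kb rho was 0.22 (693 pairs), and over 50 kb it was 0.094 (390 pairs). Of the nearest pairs, 295 were both higher and 249 both lower; in 62 the member was higher and the neighbour lower, and in 137 the reverse.

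**Figure D4:**
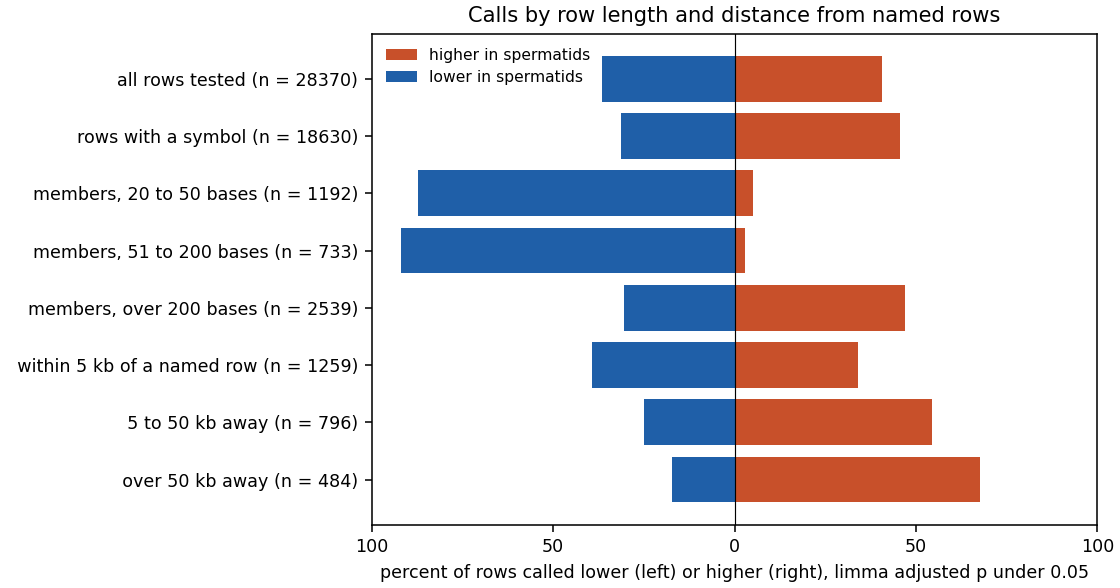
Bars give the percent of rows called lower (left) or higher (right) in spermatids by limma (adjusted p under 0.05), for all rows, rows with a symbol and members by length, with the long members split by distance in the lowest 3 bars. Rows of 20 to 50 and 51 to 200 bases were mostly lower (1039 of 1192 and 674 of 733), and the share called higher among long rows was 34.1% within 5 kb and 67.6% over 50 kb.

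Having no symbol in the table did not mean being unknown to other annotations. No GENCODE vM21 gene overlapped 2130 members, 1340 of them up to 200 bases. At 90% reciprocal overlap, 923 members matched 1 gene, and 511 of these were higher in spermatids and 211 lower, with a median of 1.30. Of all rows tested, 40.6% were higher and 36.5% lower. With a mean of at least 10 in both cell types, 208 of 547 matched members were higher and 161 lower (38.0% and 29.4%), with a median of 0.01. Of all 21828 rows that meet this condition, 37.3% were higher and 35.2% lower. Matched long intergenic noncoding genes gave 311 higher and 94 lower of 510 (median 2.79). With that mean in both they gave 115 and 80 of 292 (39.4% and 27.4%, median −0.0003), so the share called higher was near that of all rows. Matched TEC genes, transcribed regions whose coding status awaits experiment, gave 122 higher and 74 lower of 256 (0.66). Matched antisense genes gave 17 higher and 7 lower of 34, and transcripts from bidirectional promoters 11 higher and 12 lower of 31. Rows over 200 bases with no GENCODE gene gave 332 higher and 258 lower of 790 (0.21). The TEC, antisense, bidirectional and no-gene classes were not counted with a mean of at least 10 in both cell types. Their counts therefore include rows that passed the floor through 1 cell type alone.

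Protein-coding genes were matched by 45 members, of which 30 were higher in spermatids and 6 lower (median 1.46). With a mean of at least 10 in both cell types these were 22 and 4 of 34. Of all rows tested, 40.6% were higher and 36.5% lower, and of the 21828 rows that meet the condition, 37.3% and 35.2%. The genes described here were chosen after their values were seen. Lrrc74a, a leucine-rich repeat gene, had 332 and 265 in spermatocytes and 27081, 19198 and 17582 in spermatids. Myh15, a myosin heavy chain, had 158 and 93.2 against 9777, 9728 and 10966. Heatr9, which encodes HEAT repeats, had 95.9 and 53.0 against 5760, 6681 and 5243. In these 3 genes every spermatid value was far above both spermatocyte values. Otud3, a deubiquitinase, was high in both cell types, with 4190 and 3721 against 14200, 12736 and 11805, a log2 fold change of 1.71 ± 0.11 (SE). Catsperd, a subunit of the sperm calcium channel CatSper, had 16063 and 15234 in spermatocytes and 9585, 7160 and 7454 in spermatids, and was called lower. Bin2, which encodes a BAR domain protein, had 6869 and 6330 against 2003, 1967 and 1878, and was also called lower, with a log2 fold change of −1.76 ± 0.09 (SE). Tmem200b, a transmembrane protein gene, had 886 and 915 against 62.0, 96.1 and 78.6. No value overlapped between the groups in these 4 genes.

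The largest differences toward spermatids were in rows with few or no spermatocyte reads. GSMG0029835, at chr5:126706934-126711821 and inside the noncoding gene 1700081B01Rik, was at 0 in both spermatocyte samples and had 265, 250 and 226 in spermatids. This is at least 94.3-fold higher when each spermatocyte library is set to 3 reads. GSMG0026417 (chr4:37969689-37984359) was at 0 and 0 against 304, 194 and 131, at least 80.0-fold higher. GSMG0003264, matching the antisense gene Gm15124, was at 0 and 0 against 166, 167 and 173, at least 64.3-fold higher. Their limma adjusted p-values were 1.53e-06, 8.11e-06 and 2.35e-06. Detectable in both cell types was GSMG0032768, matching the noncoding RefSeq gene 4930554P06Rik, with 8.62 and 6.03 against 1307, 1326 and 1003 (log2 fold change 7.19 ± 0.24, SE, limma adjusted p = 8.53e-07). GSMG0001201, matching 1700023G09Rik, had 10.8 and 2.01 against 778, 937 and 846 (7.16 ± 0.53). GSMG0024089, matching 1700029B24Rik, had 0 and 4.02 against 383, 317 and 286, and GSMG0054804 had 0 and 4.02 against 278, 394 and 394. GSMG0019084 was the least even of these, with 16.2 and 1.34 against 1395, 1364 and 515. Groups were apart in all 8 rows, as the rule for choosing them required.

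Toward spermatocytes, GSMG0029633 had the largest log2 fold change on the log2(signal + 1) scale with all samples. It lies at chr5:113323886-113325480, a long row inside an array locus and over the TEC gene Gm43353. This row had 1116 and 964 in spermatocytes against 0, 10.9 and 9.43 (log2 fold change −7.70 ± 1.04, SE, limma adjusted p = 0.000474). GSMG0058255, a row of 29 bases at chr6:128184176-128184204, had 166 and 130 against 0 in all 3 spermatid samples, at least 41.2-fold higher in spermatocytes. Its log2 fold change of −7.21 exceeded that of GSMG0029633 with an offset of 0.5 (−8.20 against −8.08) and without spermatid sample 1 (−7.21 against −6.54), so the order of these rows depends on the setting. GSMG0024334 (chr3:58135539-58138481) had 143 and 127 against 0 in all 3, at least 37.7-fold higher. GSMG0052705 had 608 and 394 against 1.55, 5.95 and 3.14, and GSMG0043959 had 629 and 495 against 3.10, 3.96 and 7.34. GSMG0043197 had 133 and 133 against 0, 0 and 1.05; its ratio of 380 rests on few spermatid reads, and its 95% counting interval ran from 68.1 to 14995. Again no value overlapped between the groups, which the rule required.

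**Figure D5:**
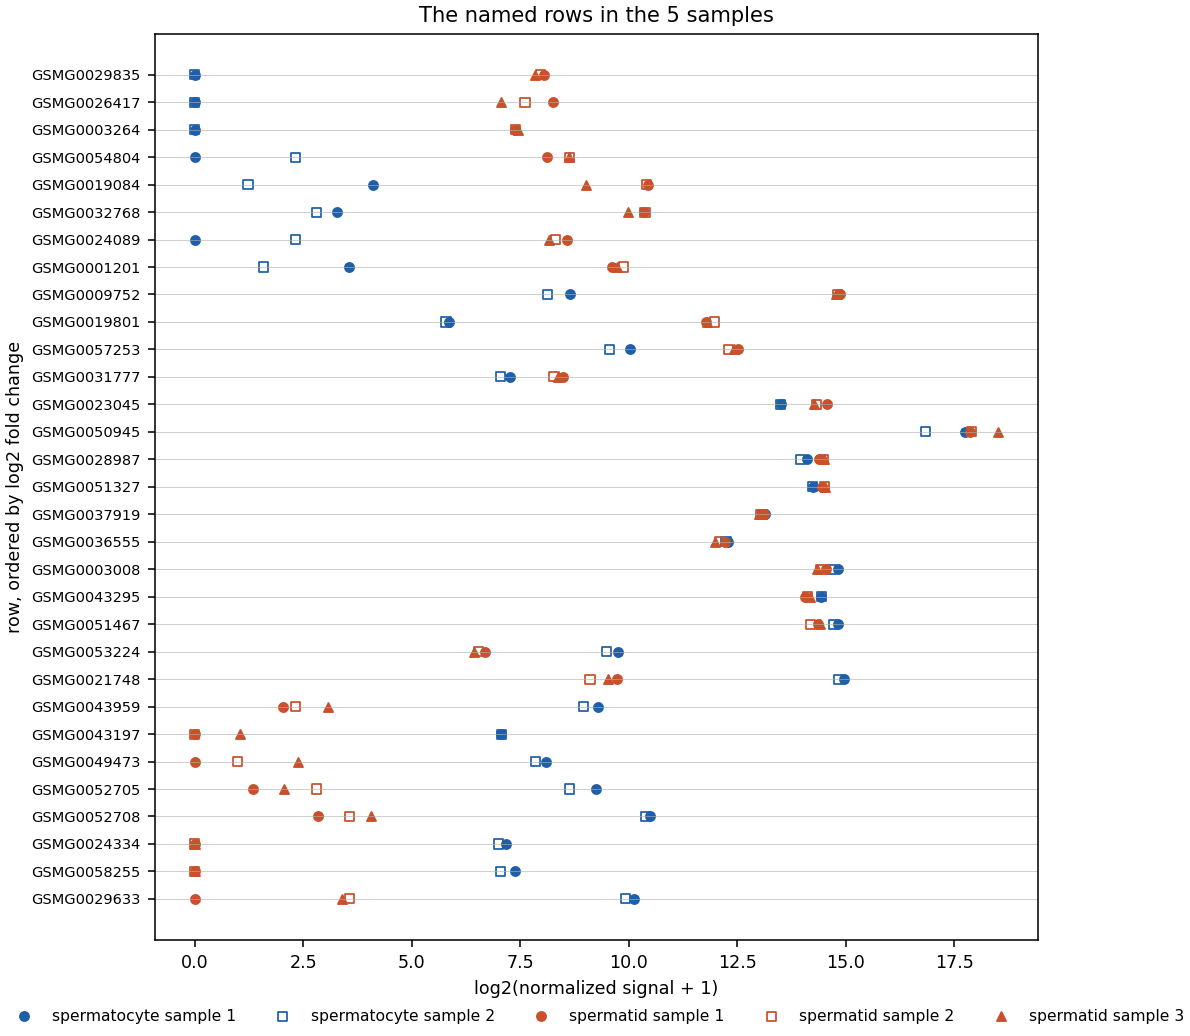
The 31 rows named by rule, ordered by log2 fold change (spermatids minus spermatocytes), with log2(normalized signal + 1) in the 5 samples. The top 8 rows are high in spermatids alone or nearly so, the bottom 8 in spermatocytes, and most rows of highest signal, in the middle, differ little between cell types.

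Several abundant members had large differences too. GSMG0021748, matching Gm14244, an antisense gene, had 31683 and 29042 in spermatocytes against 843, 550 and 739, a log2 fold change of −5.44 ± 0.18 (SE, limma adjusted p = 8.76e-07). Its promoter window, printed above, holds 2 copies each of AACTG and GGGCGG. GSMG0009752, matching the TEC gene Gm17611, went the other way, with 402 and 278 against 29788, 28696 and 27787 (6.42 ± 0.16, adjusted p = 4.54e-07 by limma). GSMG0019801, inside 1700054A03Rik, had 57.1 and 54.3 against 3530, 4019 and 3569 (6.03 ± 0.12). GSMG0023045, over the processed pseudogene Gm4735, had 11683 and 11513 against 24372, 20574 and 19558 (0.88 ± 0.11). GSMG0031777, matching the pseudogene Olfr443-ps1, had 153 and 131 against 355, 309 and 328 (1.21 ± 0.17). GSMG0053224, a row of 103 bases over part of Mir7232, had 856 and 713 against 102, 92.2 and 85.9 (−3.05 ± 0.18). The spermatid and spermatocyte values of each of these 6 rows were apart. Processed pseudogenes resemble their parent genes, so the reads of such rows are uncertain.

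The member of highest signal, GSMG0050945 at chr17:39842997-39848829, overlaps RefSeq entries for an 18S ribosomal RNA pseudogene (Rn18s-rs5) and AY036118. It had 220125 and 116571 in spermatocytes and 236332, 242504 and 371254 in spermatids, a log2 fold change of 0.79 ± 0.31 (SE, limma adjusted p = 0.049). The call was lost without spermatocyte sample 2 (adjusted p = 0.408), spermatid sample 2 (0.0769) or spermatid sample 3 (0.134), by limma. GSMG0051327, matching Rpl10l, an autosomal retrogene that encodes a ribosomal protein, had 19367 and 19204 against 22360, 23334 and 23446; its log2 fold change of 0.26 ± 0.08 turned to −0.39 with equal library totals and −0.49 with quantile normalization. GSMG0028987, a row over the later part of Drc1, an axonemal dynein regulator, had 17747 and 15841 against 21485, 23024 and 23091, and its 0.43 ± 0.09 turned to −0.22 and −0.33. GSMG0051467, over part of Fam186b, had 28934 and 26940 against 21115, 18757 and 21815 (−0.44 ± 0.10). GSMG0003008, with no GENCODE gene, had 28989 and 25947 against 23980, 21979 and 20545 (−0.31 ± 0.10), and GSMG0043295, over Gm12715, 22170 and 22355 against 16952, 17645 and 18606 (−0.33 ± 0.08). With 1 sample left out, limma's adjusted p for GSMG0051327 was 0.0608 to 0.107 (without spermatocyte sample 1 or 2, or spermatid sample 2 or 3), for GSMG0003008 0.0640 to 0.202 (the same samples), for GSMG0043295 0.0608 and 0.0678 (spermatocyte sample 1 or 2), for GSMG0028987 0.0552 (spermatocyte sample 2) and for GSMG0051467 0.0631 (spermatocyte sample 1). GSMG0037919, matching Gm27045 and inside the RefSeq gene 1700018B08Rik, had 9004 and 8599 against 8887, 8444 and 8214. GSMG0036555, over Gm15500, had 4965 and 4831 against 4772, 4336 and 4085. Neither passed the test (limma adjusted p = 0.621 and 0.186).

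All members together held 2.67% and 2.49% of the normalized signal in spermatocytes and 1.86%, 1.99% and 2.19% in spermatids. The groups did not overlap, but the exact two-sided permutation test gave p = 0.2, the smallest that 2 samples against 3 allow. Without the ribosomal row the shares were 2.29% and 2.27% against 1.61%, 1.70% and 1.73%. The array rows held 0.271% and 0.258% in spermatocytes and 0.0149%, 0.0160% and 0.0185% in spermatids. The other members over 200 bases, without the ribosomal row, held 1.93% and 1.93% against 1.53%, 1.62% and 1.65%. These shares were also lower in spermatids although more of the rows were called higher. Each share is of a library's total normalized signal, which was 56855924 and 53899393 in spermatocytes and 96511989, 83611275 and 80600836 in spermatids. With these unequal totals a lower share need not be a lower normalized signal.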

How the data were processed

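RNA was measured in 2 spermatocyte and 3 spermatid samples. The deposited values are a normalized signal for each row in each sample: counts scaled by DESeq size factors by the authors, per the file headers. The submitters' processing notes name DESeq, STAR 2.4.0, SAMtools, Picard and FastQC, and build mm10, without stating what each was used for. The counting program, its strand setting and its handling of reads that match several places are not stated in the labels or headers used, so overlapping transcripts on opposite strands cannot be told apart, and rows in repeats or copies are uncertain. In all 5 columns 100% of values were whole multiples of the value of 1 read within 0.001, which gave whole reads. Intervals and floors (3 reads per library) cover counting error only.

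Rows with a mean of at least 10 were fitted together with limma 3.58.1 in R 4.3.3 (eBayes with a trend, log2(signal + 1), which understates the change of low rows), with Benjamini-Hochberg adjustment at 0.05 over all 28370 rows; called means past that threshold. edgeR 4.0.16 and DESeq2 1.42.0 were run on the recovered reads, and the other settings are in the closing section. The limma fit was tested on simulated counts in which few rows were changed, unlike these data. The edgeR and DESeq2 fits were not tested in this way. Groups came from the cell type labels and replicate numbers from accession order. Python 3.11.15 (scipy 1.17.1, numpy 2.4.6, pandas 2.3.3, matplotlib 3.10.9) made the tables and plots.

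The members and lists were chosen with earlier results of these data known. Rows were named by rule: in each direction, the 8 called rows of largest log2 fold change whose values did not overlap and whose higher group averaged 100 or more; the 8 of highest mean; and the most abundant row of each distance class and each annotation class with 5 or more members. Size classes, arrays, loci, first bases and the promoters shown were chosen after values were seen. GENCODE vM21 and RefSeq GRCm38.p6 share the table's build. Promoter windows came from RefSeq sequences and short rows were read from GENCODE transcripts. The table gives no strand, and no sequence of whole chromosomes was used, so position classes use distance alone, repeat content was not computed, and base content was computed for promoter windows and for short rows inside annotated exons alone. Replicates differed by more than sampling noise in each pair, so each counts as 1 sample.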

Additional observations from a re-analysis of the deposited data

How the results depend on the processing

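The limits are 2 samples against 3, values scaled by the authors' size factors, no strand, and short rows that may be pieces of 1 transcript. No paired analysis was possible because nothing in the labels ties a spermatid sample to a spermatocyte sample: the spermatid titles carry numbers, the spermatocyte titles carry letters, and the replicate numbers used here are in accession order. Raising the floor to a mean of 100, which leaves fewer rows, gave 631 members higher and 489 lower with a median log2 fold change of 0.30, the opposite sign to −1.54. Counting 1 row per locus, an alternative chosen after seeing the data, gave 747 lower and a median of 0.40, also the opposite sign. By construction both keep fewer short rows. For members up to 200 bases, the floor of 100 gave 29 higher, 146 lower and a median of −3.05, and for longer members 602, 343 and 0.71. The medians of all members, of short and of long members were −2.16, −4.22 and −0.19 with equal library totals, the last of the opposite sign to 0.44, and −1.89, −4.04 and 0.070 with quantile normalization. TMM factors gave −1.64 for all members and 0.33 for long ones. An offset of 10 gave −1.14, −2.07 and 0.39, and an offset of 0.5 gave −3.89 for short members. edgeR gave −3.90 for short and 0.49 for long members and DESeq2 −3.96 and 0.49. Members at least 5 kb from a row with a symbol gave 819 higher, 1562 lower and −2.23; a floor of 20 gave 1621 lower and −0.89; a mean of at least 10 in each cell type gave 551 higher, 890 lower and −0.58, with 46 higher, 319 lower and −2.37 for short members and 505 higher and −0.22, again the opposite sign, for long members; and members that overlap no annotated pseudogene gave a median of −1.62. The causes of these shifts were not tested, beyond the fewer rows that stricter rules keep.

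Leaving out 1 sample at a time, the counts ran from 1161 to 1282 higher and 2191 to 2530 lower, with medians from −1.56 to −1.54. For short members they ran from 66 to 83 higher and 1613 to 1721 lower, with medians from −3.75 to −3.57, and for long members from 1095 to 1199 higher and 560 to 809 lower, with medians from 0.43 to 0.49. The difference in the members' share of the signal ran from −0.66 to −0.48 percentage points, against −0.57, and was −0.61 without the 10 most abundant members. edgeR called 3778 members and DESeq2 3709, of which 3752 and 3693 were among the 3759 limma calls in the same direction. For the named rows, 425 of the values under other settings kept their direction and their side of the threshold, 27 lost the call and 6 gained it. The other 4 changed sign: with equal totals and with quantile normalization respectively, GSMG0051327 went to −0.39 and −0.49 and GSMG0028987 to −0.22 and −0.33. Counting overlap on the same strand alone was not run, since the table gives no strand. Rows near the floor of 10 rest on few reads per sample, and small differences in them were not detectable.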
